A study of Rattus norvegicus with 8 samples.

Results

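Olfactory receptor genes were examined in the medial thalamus of rats: they are the probes named Olr and a number on an oligonucleotide array that were well above background on all 8 arrays of the study. The members were chosen by the detection flag of the scanner software, which left 89 genes, each read by 1 probe of 60 bases, of 1112 Olr probes for 1107 gene names. The array held 41012 probes other than controls. Tissue came from male Sprague-Dawley rats, conscious during the sessions, in 2 groups. The 4 occlusion rats received repeated tracheal occlusions of 3 to 10 breaths, each run followed by about 30 s of recovery, in daily sessions for 10 days. The 4 control rats were surgical controls with daily sessions and no occlusions. On the last day all rats were killed by an anaesthetic overdose within 10 min of the end of the session. The medial thalamus relays sensory signals to the cortex, and the study asked how its expression profile differed after tracheal occlusion conditioning. Each rat gave 1 array, hybridised with Cy3-labelled cRNA made from 1 µg of total RNA.

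Olfactory receptors are G protein-coupled receptors that bind odorants at the cilia of olfactory sensory neurons. They form the largest gene family of the rat, lie in clusters on many chromosomes, and each sensory neuron expresses a single one. The receptor signals through the G protein subunit Gnal and the adenylyl cyclase Adcy3 to the cation channel made of Cnga2, Cnga4 and Cngb1. Mammalian receptors fall into class I, which is related to fish receptors, and class II. Some receptors are also transcribed outside the nose, and a thalamic sample holds no olfactory epithelium.

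The 8 arrays lay on 2 slides by the array barcodes in the labels. Slide 1 held occlusion replicates 1 and 3 and control replicates 1 and 4, and slide 2 held occlusion replicates 2 and 4 and control replicates 2 and 3. Groups were therefore balanced over the slides. Between 65.0% and 71.6% of the spots on an array were well above background. The lowest signal that carried the flag, here called the floor, was 26.0 to 49.0 intensity units per array.

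Of the probes, 2 sets are printed so that the values below can be read beside the sequences. All positions are those of the array's annotation on rat build rn3, and none of them could be placed in an exon or intron here, since no rn3 annotation was used. The first set holds pairs of receptor probes with a stretch of identical bases, written in capitals, that lie on the same chromosome. Olr791 (now Or4f14d) was at chr3:97764004-97764063 and Olr789 (Or4f61b) at chr3:97631040-97631099, both on the minus strand. They share 19 bases.

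Olr791: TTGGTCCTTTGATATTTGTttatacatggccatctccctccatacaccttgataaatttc
Olr789: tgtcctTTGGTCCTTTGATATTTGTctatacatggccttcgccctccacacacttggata

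Olr1555 (Or5h17b) and Olr1535 (Or5h26) on chromosome 11 share 19 bases at different distances from the probe's end. Olr1454 and Olr1452 (Or2t44b), at chr10:44997020-44997079 and chr10:44959278-44959337 on the plus strand, share 25 bases.

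Olr1555: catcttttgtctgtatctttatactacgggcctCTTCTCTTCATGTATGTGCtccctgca
Olr1535: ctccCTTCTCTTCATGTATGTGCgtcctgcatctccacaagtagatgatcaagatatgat
Olr1454: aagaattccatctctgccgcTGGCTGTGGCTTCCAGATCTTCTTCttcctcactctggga
Olr1452: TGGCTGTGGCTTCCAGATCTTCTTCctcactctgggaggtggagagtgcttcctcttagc

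The second set holds the 3 members with the largest difference between the slides, then 3 with almost none, with every T in capitals because T content is described below. Of the first 3, Olr1273 and Olr1142 hold 24 T each and Olr63 holds 25. Of the last 3, Olr1439 holds 18, Olr157 holds 19 and Olr237 holds 25. Their positions are chr8:41191914-41191973 (minus strand) for Olr1273, chr8:17431968-17432027 (plus) for Olr1142 and chr1:160727812-160727871 (minus) for Olr63. Those of the others are chr10:44717906-44717965 (plus) for Olr1439, chr1:165357702-165357761 (minus) for Olr237 and chr1:162363078-162363137 (plus) for Olr157.

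Olr1273: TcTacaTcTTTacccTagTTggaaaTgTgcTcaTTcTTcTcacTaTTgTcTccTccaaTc
Olr1142: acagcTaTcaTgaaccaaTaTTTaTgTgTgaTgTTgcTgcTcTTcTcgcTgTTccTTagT
Olr63: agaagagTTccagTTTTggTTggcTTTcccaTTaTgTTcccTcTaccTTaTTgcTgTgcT
Olr1439: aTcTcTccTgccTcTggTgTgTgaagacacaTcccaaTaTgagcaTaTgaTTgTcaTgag
Olr237: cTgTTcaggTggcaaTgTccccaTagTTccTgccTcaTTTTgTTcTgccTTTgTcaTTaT
Olr157: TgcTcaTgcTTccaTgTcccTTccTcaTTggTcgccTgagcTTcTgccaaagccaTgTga

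Most olfactory receptor probes were not detected in the thalamus, and a minority were detected on every array. Of the 1112 Olr probes, 647 (58.2%) were well above background on no array, against 23.1% of all spots. The 89 members made up 8.0% of the Olr probes, while 60.7% of all spots carried the flag on all 8 arrays. Between these ends, 18 Olr probes were detected on 7 arrays and 88 on exactly 4. These counts are the rule's own measure and are given as a description.

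**Figure D1:**
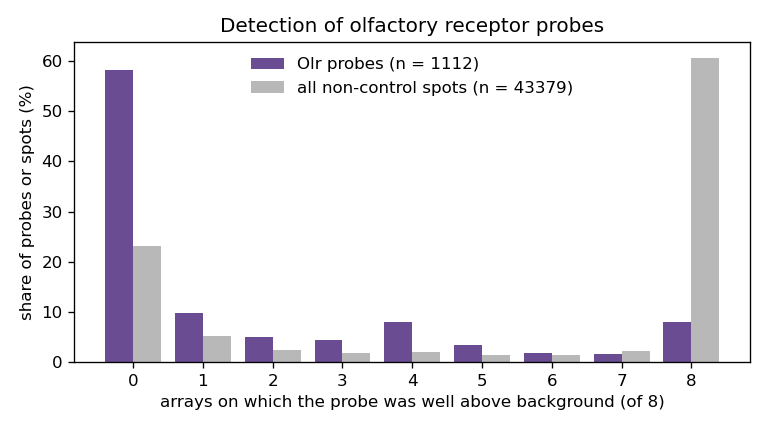
Share of probes or spots (%) by the number of arrays, of 8, on which they were well above background, for Olr probes (purple) and all non-control spots (grey). Olr probes pile up at 0 arrays (58.2%), all spots at 8 arrays (60.7%), and the Olr bars have a second small rise at 4 arrays.

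In the other chemosensory receptor families on the array, most probes were likewise not detected on all 8 arrays. Of 15 probes for trace amine-associated receptors, which sense amines, 1 (Taar8c) was detected on all 8 arrays. Among the vomeronasal receptors, which read pheromone signals, none of 12 type 1 probes and 3 of 25 type 2 probes (Vom2r40, Vom2r44 and Vom2r45) were. The counts were 1 of 3 for sweet and umami taste receptors (Tas1r1), 0 of 11 for bitter taste receptors and 0 of 3 for formyl peptide receptors. Detected on no array were 9 of 15 trace amine-associated, 8 of 12 vomeronasal type 1 and 11 of 25 vomeronasal type 2 probes. The same held for 1 of 3 sweet and umami, 10 of 11 bitter and 2 of 3 formyl peptide receptor probes.

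Members ranged from next to the floor to far above it. The mean signal of the members ran from 66.8 to 1493 intensity units with a median of 173. The mean margin over the floor had a median of 4.57 times, and the margin on a member's lowest array had one of 2.62 times. On at least 1 array 35 members were under 2 times the floor, while 9 members stayed at least 10 times above it on all 8. No member was saturated or flagged as an outlier on any array. The brightness of 2 different probes does not order their transcripts, so the signals below are set only against the floor and against the same probe on other arrays.

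The probe with the highest signal was Olr1416 (now named Or2t48e), at 1257, 1183, 1644 and 1653 in occlusion replicates 1 to 4, against 2073, 1208, 1293 and 1885 in control replicates 1 to 4. Olr821 (Or2a57) followed with 1923, 1167, 1306 and 2654 in occlusion arrays, against 1333, 1266, 1023 and 1602 in control arrays. Olr776 (Or4f7c) gave 1681, 1186, 1154 and 2028, against 1430, 1327, 1355 and 1434. For all 3 the ranges of the groups overlapped, and their lowest margin over the floor was 30.2, 27.1 and 29.2 times. The next 3 in signal, Olr357 (Or5b123b), Olr3 (Or10am5) and Olr1423 (Or2t47d), were at least 16.3 times above the floor on every array. All 6 are class II receptors by their current names.

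At the other end, the 3 members with the lowest mean signal were Olr876, Olr1433 and Olr651 (Or4c103). The members nearest to the floor on any array were Olr1061 (Or10u3), at 1.08 times it, and Olr837, at 1.09 times. Olr651 read 112, 42.2, 73.4 and 53.9 in occlusion arrays, against 92.2, 64.8, 61.2 and 58.4 in control arrays, and came as low as 1.19 times the floor. Just outside it, the brightest probes at 7 arrays were Olr1249 (Or8b46b), Olr74 (Or52r1c) and Olr694 (Or4c1). Their mean signals were 111, 104 and 101. The array that each of them missed, occlusion replicate 4, control replicate 3 and control replicate 2, lay on slide 2.

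Further receptors of interest were also read. Olr59, the rat counterpart of the mouse receptor Olfr78 known from oxygen-sensing cells of the carotid body, was well above background on 6 of 8 arrays. Its signal was 103, 22.7, 60.0 and 48.1 in occlusion arrays, against 48.7, 22.1, 94.5 and 108 in control arrays. It was detected on all 4 arrays of slide 1 and on 2 of slide 2. Olr1 and Olr1696 were detected on no array, with highest signals of 19.2 and 26.3. Olr63 (Or51e1), whose human counterpart is known from the prostate, was a member.

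The number of olfactory receptor probes detected on an array separated by slide and not by group. Slide 1 arrays detected 365 (occlusion 1), 374 (occlusion 3), 297 (control 1) and 261 (control 4) Olr probes. Slide 2 arrays detected 142 (occlusion 2), 148 (occlusion 4), 116 (control 2) and 154 (control 3). Slide 1 averaged 324 ± 54.4 and slide 2 averaged 140 ± 16.7 (SD, n = 4 arrays each), with no overlap, whereas the groups overlapped, at 257 ± 130 in occlusion and 207 ± 85.8 in control arrays. The share of all spots detected averaged 68.5% ± 2.33 on slide 1 and 66.3% ± 0.888 on slide 2.

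**Figure D2:**
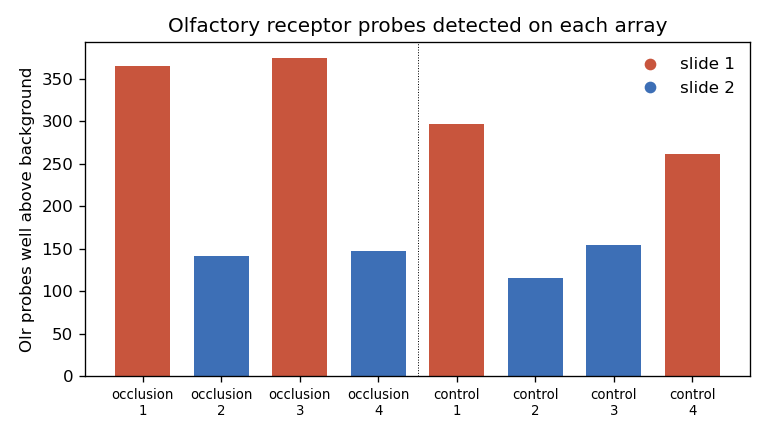
Number of Olr probes well above background on each array, occlusion arrays at the left and control arrays at the right, coloured by slide. The 4 slide 1 arrays detected 261 to 374 and the 4 slide 2 arrays 116 to 154, in both groups.

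Many receptors were detected on 1 slide alone. On all 4 arrays of slide 1 and on none of slide 2, 79 Olr probes (7.10%) were well above background, against 345 of all spots (0.795%). The reverse held for 0 Olr probes and for 24 of all spots. Only Olr545 (Or10ag52b), 0.090% of the Olr probes, was detected on all 4 occlusion arrays and no control array, against 32 of all spots (0.074%). It is named here after its values were seen. Its signals overlapped between the groups, at 60.5, 57.5, 42.2 and 71.9 in occlusion arrays, against 41.9, 51.9, 45.3 and 73.0 in control arrays.

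The negative control spots, which carry no rat sequence, did not separate the slides in this way. Their median signal was 6.30 to 11.7 intensity units on slide 1 and 8.13 to 10.1 on slide 2. Their 99th percentile was 28.5 to 96.2 on slide 1 and 18.8 to 68.1 on slide 2. The Olr probes detected on no array had a median of 7.35 to 12.8 on slide 1 and 8.45 to 10.6 on slide 2. They were chosen for low signal on both slides, so their medians cannot show whether the slides differ. Over all Olr probes the median was 14.7 to 16.2 on slide 1 and 9.27 to 11.5 on slide 2.

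Levels of the 89 members followed the same split. A level here is the log2 signal minus the log2 of the array's 75th percentile over non-control spots, the scale of all differences below. The median level over the members was −2.54, −2.66, −2.80 and −2.81 on the slide 1 arrays (occlusion 1, occlusion 3, control 1, control 4). It was −3.97, −3.96, −3.88 and −3.93 on the slide 2 arrays (occlusion 2, occlusion 4, control 2, control 3). The median over all tested probes lay between −1.24 and −1.17 on every array. The members were lower on every slide 2 array than on any slide 1 array by this median.

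**Figure D3:**
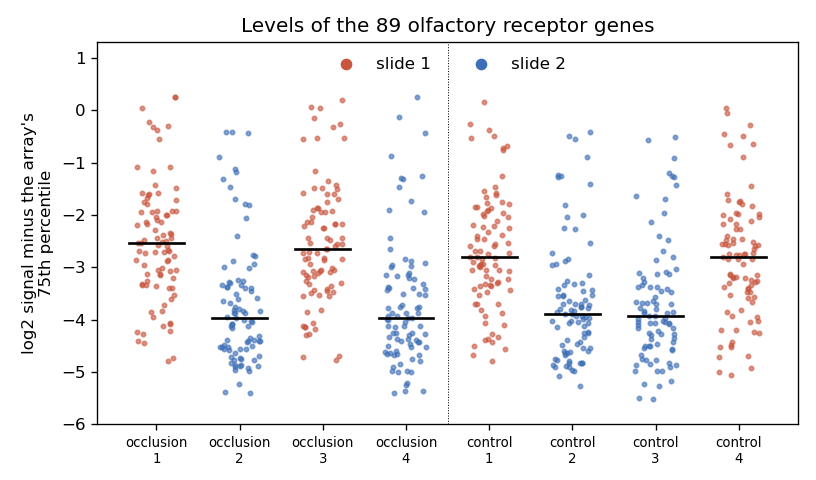
Level (log2 signal minus the array's 75th percentile) of each of the 89 genes on each array, occlusion at the left, coloured by slide, with a black line at the array's median. The medians lie at −2.81 to −2.54 on slide 1 and −3.97 to −3.88 on slide 2, whatever the group.

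To put a size on it, slide 1 was compared with slide 2 in limma with the group as a block, a comparison added after the slides were seen to separate the arrays. It called 51 of the 89 members at an adjusted p under 0.05, all of them higher on slide 1. Over all 27149 probes tested, 7.16% were called and 6.05% were called higher on slide 1. Among the probes detected on all 8 arrays, as the members are, 3.91% were called higher on slide 1. The median difference of the members was 1.08, a 2.11-fold higher signal on slide 1, against 0.048 for all tested probes. The members made up 0.328% of the tested probes and 2.62% of the slide calls. Differences of over 1 were found for 47 members and of over 2 for 11.

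The largest difference was that of Olr1273 (Or10d1g), a class II receptor. Its level was −1.48, −1.47, −1.90 and −1.72 on slide 1 (occlusion 1, occlusion 3, control 1, control 4), against −4.42, −3.75, −3.78 and −4.82 on slide 2 (occlusion 2, occlusion 4, control 2, control 3). The difference was 2.55 ± 0.24 (SE), a 5.85-fold higher signal on slide 1 (limma, adjusted p = 0.00051). All 4 slide 1 arrays lay above all 4 slide 2 arrays, and within each slide the groups lay close together.

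Olr1142 (Or7g30) read −2.28, −2.55, −2.45 and −2.76 on slide 1 and −4.86, −4.74, −4.90 and −4.75 on slide 2. The difference was 2.30 ± 0.12 (limma, adjusted p = 9.7e-05). Olr63 (Or51e1), a class I receptor, differed by 2.28 ± 0.23 (adjusted p = 0.00062). Olr1349, Olr93, Olr1522, Olr1108 and Olr1111 followed, at 2.23, 2.22, 2.17, 2.13 and 2.13. For 55 members all slide 1 arrays lay above all slide 2 arrays, as they did for 8.27% of all tested probes, and the 51 called members were among these 55.

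Not all members moved with the slide. For 11 members the difference lay between −0.2 and 0.2, among them Olr1439 (Or2ak6, −0.02 ± 0.12), Olr157 (Or52p1, −0.03 ± 0.14), Olr237 (Or5p50, −0.03 ± 0.11) and Olr37 (Or2at1, −0.04 ± 0.10). Olr1439 read −1.15, −1.16, −1.26 and −1.59 on slide 1 and −1.30, −1.31, −1.23 and −1.25 on slide 2, so the slides overlapped. The lowest difference was that of Olr1337 (Or10s1), −0.66 ± 0.36 (adjusted p = 0.455), and 9 members in all were lower on slide 1. Olr776 and Olr821, 2 of the brightest members, differed by 0.09 and 0.23 and were not called.

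Probes on the same chromosome with shared bases could differ. In the first pair printed above, Olr791 read −0.30, −1.35, −1.46 and −2.39 on slide 1, against −2.78, −2.85, −2.95 and −2.85 on slide 2, a difference of 1.48 ± 0.32 (adjusted p = 0.031). Olr789, which shares 19 bases with it, differed by 0.13 ± 0.14 (adjusted p = 0.741). In the second pair Olr1555 differed by 0.29 and Olr1535 by 1.66. In the third, Olr1454 differed by 1.14 ± 0.10 (adjusted p = 0.00034) and Olr1452 by 0.90 ± 0.30 (adjusted p = 0.160). The differences within a pair were not tested.

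Other probes of the same signal were set beside the members. In the members' range of mean level, −4.74 to −0.25, lay 13447 other probes detected on all 8 arrays. Their median slide difference was 0.03 and 7.70% of them were called in either direction, against 57.3% of the members. For levels of −3 to −2, 18 of 20 members (90%) and 7.61% of 3195 other probes were called, with medians of 1.44 and 0.01. At −5 to −4, next to the floor, 5 of 18 members and 12.2% of other probes were called, with medians of 0.60 and 0.12. At −1 to 0, 3 of 6 members and 1.62% of other probes were called, with medians of 0.68 and 0.01.

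**Figure D4:**
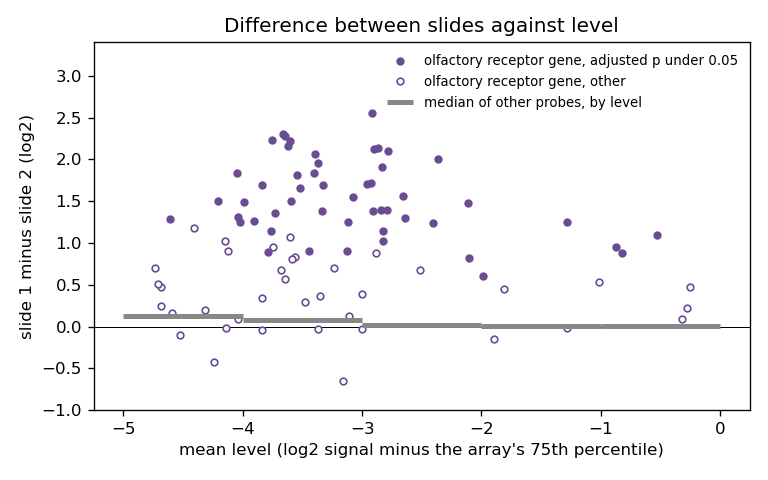
Slide 1 minus slide 2 (log2) of each member against its mean level, filled where limma's adjusted p was under 0.05, with grey bars for the median of other probes in each unit of level. The members reach 2.55, while the grey bars stay at 0.12 or below.

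The members' probes were rich in T. A member's probe held a median of 36.7% T and 18.3% A, against 26.7% T and 28.3% A in the other probes of the same signal range. More T than A was found in 86 of 89 members (96.6%), in 871 of 1112 Olr probes (78.3%) and in 40.4% of the other probes. The median GC content was 45% in members and in the other probes, and 40% over all Olr probes. Of the Olr probes detected on no array 70.2% had more T than A, with a median GC content of 38.3%.

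The excess of T over A moved with the slide difference among other probes as well, at a smaller size. Other probes with an excess of 20 percentage points or more had a median slide difference of 0.17 and 20.5% were called, against −0.01 and 4.46% for those with less T than A. The 40 members with such an excess had a median of 1.38. With an excess of 10 to 20 points the median was 0.92 in 34 members and 0.12 in other probes, and with 0 to 10 points it was 0.61 in 12 members and 0.05 in other probes. The 3 members with less T than A had a median of 0.67. Across the 89 members Spearman's rho of the T excess with the slide difference was 0.21, and that of mean level was 0.06. These correlations share the same 8 arrays and are a description. The part of base composition in the slide difference was not tested.

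Cross-hybridisation was not tested, and the probe sequences were compared only with other probes of the array, not with transcripts. Binding to a sequence outside those probes, or with mismatches, cannot be seen this way. Of the 89 members 20 list over 1 RefSeq accession as a target, and 10 share a stretch of at least 20 bases with another Olr probe. No member shares such a stretch with a probe outside the family. Of the 20 members with several accessions, 10 were called between the slides. Among the 69 with a single accession, 41 were, with a median difference of 1.1. Among the 79 that share no such stretch, 47 were, with the same median.

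The members were spread over the family's chromosomes and both classes. They lay on 15 chromosomes of rn3, with the unplaced sequence of chromosome 1 counted as 1 of them, and most of them were on chromosomes 1 (24), 10 (16), 3 (14) and 8 (12). Chromosome 3 held 280 Olr probes and 14 members (5.0%), and chromosome 10 held 110 and 16 (14.5%). The cluster at chr10:44109611-45910311 held 9 members among 35 probes (25.7%), the highest share of the 14 clusters with at least 20 probes. Olr1416 and Olr1423 were among these 9, whose slide differences ran from −0.02 (Olr1439) to 2.0 (Olr1455). The cluster at chr3:15369932-16743223 held none among 32.

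By name, 88 of the 89 members matched a gene of the RefSeq table of assembly GRCr8, 83 of them to a current Or symbol. Olr875 and Olr876 are both older names of Or10p22, so the 89 names stand for 88 current genes. Their slide differences were 1.39 ± 0.22 (limma's adjusted p = 0.0057) and 0.24 ± 0.18 (adjusted p = 0.605). Of the 83 names 10 (12.0%) are class I and 73 class II, against 114 (10.9%) and 936 of all Olr probes with such a symbol. The slide difference had a median of 1.23 in class I and 1.08 in class II, and 7 and 41 were called. A named gene other than an olfactory receptor was the direct neighbour, in that assembly, of 19 of 88 members (21.6%), against 157 of 1106 Olr probes (14.2%).

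Between occlusion and control rats no olfactory receptor gene was called. The limma fit over 27152 probes called none of the 89 members at an adjusted p under 0.05, where 0% of all probes were called. For the members the lowest adjusted p was 0.417, and over the whole array it was 0.403. At an unadjusted p under 0.05 there were 2 members, Olr821 and Olr247, both higher in occlusion, where 6.48% of all probes were higher and 4.61% lower by this rule. In all, 69 members had a positive and 20 a negative difference, with a median of 0.11, a fold of 1.08. Of all probes 53.6% were positive, with a median of 0.02. Of the 13447 other probes in the members' range of mean level, 50.3% were positive, with a median of 0.002. No member had groups that did not overlap, against 3.9% of all probes with every occlusion array higher and 2.82% with every one lower.

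Olr821 (Or2a57) read 0.25, −0.44, −0.14 and 0.26 in occlusion arrays 1 to 4, against −0.48, −0.48, −0.91 and −0.29 in control arrays 1 to 4. The difference was 0.52 ± 0.20 (SE, limma's adjusted p = 0.417), with 0.44 on slide 1 alone and 0.61 on slide 2 alone. Occlusion replicates 1 and 4 were the highest arrays, while occlusion replicate 2 lay below control replicate 4, so the groups overlapped. Olr247 (Or5p6b) differed by 0.47 ± 0.19 (limma's adjusted p = 0.426), at 0.50 and 0.44 within the slides.

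The largest positive difference was that of Olr1744 (Or10c1). It read −2.48, −3.80, −2.53 and −4.0 in occlusion arrays, against −3.93, −4.14, −4.03 and −3.82 in control arrays, a difference of 0.78 ± 0.36 (adjusted p = 0.460). The high values were occlusion replicates 1 and 3, both on slide 1. Slide 1 on its own gave 1.37 and slide 2 gave 0.19. Olr689, Olr776 and Olr1433 also stood among the 6 highest by limma's statistic, at 0.43, 0.24 and 0.46.

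The largest negative difference was that of Olr837 (Or13c7e). It read −3.25, −5.39, −3.30 and −4.66 in occlusion arrays, against −3.43, −2.88, −3.13 and −3.40 in control arrays, a difference of −0.94 ± 0.47 (adjusted p = 0.487). Both low values lay on slide 2, where the difference was −2.02, against 0.14 within slide 1. Olr37 (Or2at1) varied least among the 6 lowest, at −0.20 ± 0.10 (adjusted p = 0.492), with −0.16 and −0.23 within the slides. Olr725, Olr1452, Olr1222 and Olr1631 gave −0.46, −0.37, −0.22 and −0.16.

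Taking the slide as a block in the same fit narrowed the SE of 80 members, to a median of 0.15 from 0.45, and left all members uncalled. With the block, 8 members had an unadjusted p under 0.05, all higher in occlusion, and none passed adjustment (smallest adjusted p 0.256). Of all probes 8.77% met this rule and were higher, and 3868 of 27150 met it in either direction. The 8 members were Olr1744, Olr247, Olr3, Olr1418, Olr821, Olr875, Olr1657 and Olr1433. Olr3 (Or10am5), for example, differed by 0.48 with adjusted p = 0.614 without the block and 0.256 with it. Within slide 1 alone the median difference was 0.19 with 73 members positive, and within slide 2 it was 0.04 with 52 positive, and 48 members had the same sign in both.

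The sign of the median rested on which arrays entered. With array weights it was −0.22, with 23 members positive, and leaving out 1 array at a time it ran from −0.11 (without occlusion replicate 3, 29 positive) to 0.31 (without occlusion replicate 4, 79 positive). Each fit without an array leaves the slides unbalanced between the groups, and the cause of the sign changes was not tested. With the slide as a block and each array left out, the median stayed between 0.05 and 0.14.

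**Figure D5:**
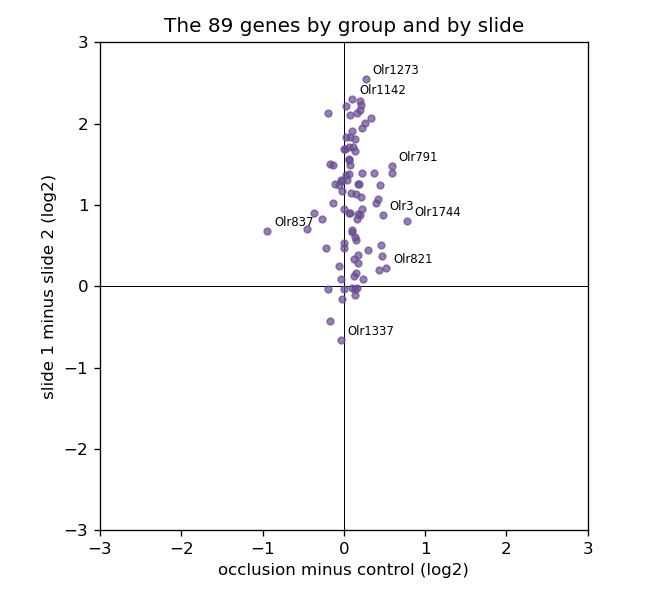
Difference between slides (slide 1 minus slide 2, log2) against difference between groups (occlusion minus control, log2) for each member, on equal axes. The points spread from −0.66 to 2.55 by slide and from −0.94 to 0.78 by group.

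The size of the slide difference exceeded that of the group difference for 79 of 89 members. The median absolute value was 1.08 by slide and 0.14 by group. Within a group, which mixes both slides, the median SD of a member was 0.75 in occlusion and 0.68 in control arrays. Within a slide, which mixes both groups, it was 0.22 on slide 1 and 0.17 on slide 2.

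The signalling genes of olfactory neurons were read beside the receptors. Of 22 such genes 19 were on the array, 12 were detected on all 8 arrays and 3 on none. The undetected ones were Omp, the olfactory marker protein, and the channel subunits Cnga2 and Cnga4, while Gnal, Adcy3 and the third channel subunit Cngb1 were detected on all 8 and Stoml3 on 6. Of 15 tested genes 7 were higher and 8 lower in occlusion, none at an adjusted p under 0.05. An unadjusted p under 0.05, a rule met by 11.1% of all probes, was found for 5. These were Gnal, Gnas, Slc24a4, Pde1c and Reep6. The count includes Gnas, which was saturated, and Reep6, which was detected in the occlusion group alone, so it is not read as an excess. The brightest genes of the list were Gnas, which was saturated on all 8 arrays, Gnal and Pde4a, all of which brain tissue also expresses. Gnal, the olfactory G protein subunit, differed by 0.36 ± 0.13 between occlusion and control (adjusted p = 0.407) and by −0.15 between slides.

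Within that list Reep6, a receptor transport factor, had the highest statistic, at 0.77 ± 0.22 (limma's adjusted p = 0.403). It was detected on 4 occlusion arrays and 0 control arrays, so it entered the test only through the group where it was higher. The lowest were the exchanger Slc24a4 at −1.01 ± 0.35 and the phosphodiesterase Pde1c at −0.57 ± 0.22 (adjusted p = 0.403 and 0.426). Rtp2, which helps receptors to the cell surface, was detected on all 4 arrays of slide 1 and on 0 of slide 2. It entered the test only through slide 1, so its slide difference of 1.95 is given as a value and supports nothing. No other gene of the 15 was called between the slides. The list's median slide difference was 0.02.

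Of 14 genes that regulate receptor choice, 13 were on the array and 11 were detected on all 8 arrays. Of 12 tested, 6 were higher and 6 lower in occlusion, none passed adjustment, and 4 had an unadjusted p under 0.05, against 11.1% of all probes. The brightest were the transcription factors Atf5 and Lhx2 and the heterochromatin protein Cbx5, at −0.34, 0.13 and 0.01. The lowest by limma's statistic were the transcription factors Emx2, at −2.77 ± 0.52, and Ebf3, at −1.26 ± 0.27 (adjusted p = 0.403 each). The highest were the histone methyltransferase Ehmt2, at 0.16, and the kinase Eif2ak3, at 0.17. None of the 12 was called between the slides.

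Markers of cell types in the tissue are given beside these values, and none of them passed adjustment. All 9 measured thalamic relay markers, such as Lef1 and Prkcd, were detected on all 8 arrays and had positive differences, with a median of 0.70. Among them Calb2, Slc17a6 and Prkcd were saturated on 8, 6 and 4 arrays, which limits their values. Over all tested probes 53.6% were positive. All 6 reticular nucleus markers, such as Gad1 and Slc32a1, had negative ones, with a median of −1.61. An unadjusted p under 0.05 in limma, a rule met by 11.1% of all probes, was found for 5 of 9 relay and 3 of 6 reticular markers. It was also found for 4 of 4 tested choroid plexus markers, from −0.91 (Clic6) to 1.83 (Ttr). Of the oligodendrocyte markers 4 of 6 met it, in a list that ran from −1.01 (Mal) to 0.31 (Mbp, saturated on 7 arrays). The count was 1 of 4 for astrocytes and 0 for the habenula, microglia, blood and testis lists. The medians of the other lists were 0.52 (habenula), −0.18 (astrocytes), −0.10 (microglia), 0.07 (blood) and 0.08 (testis, 1 marker tested). Between the slides no marker of the lists named so far in this paragraph was called, and the relay and reticular medians were 0.49 and 0.07. Olfactory sensory neuron markers numbered 10 on the array, of which 4 (Gnal, Adcy3, Cngb1 and Slc17a6, which relay neurons share) were detected on all 8 and 3 on none. Only Rtp2 of these markers, which entered the test through slide 1 as described above, was called between the slides. In bulk tissue, fewer cells of a type and less RNA per cell cannot be told apart, and the part of tissue makeup in the members' values was not tested.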

How the data were processed

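Each array was scanned in 1 colour, and the deposited scanner files hold intensity values per spot with detection flags, made with Agilent Feature Extraction 9.5.1.1 per the file headers. The processed signal is background-subtracted per the file headers, and in the authors' deposited value table each intensity lies within 0.5% of it. Control spots and outlier-flagged spots were left out, and log2 of the deposited intensity was scaled to each array's 75th percentile over non-control spots (1439 to 2216). Probes well above background on at least 4 of 8 arrays, with at least 2 values per group, were tested with limma 3.58.1 in R 4.3.3 (two-sided, Benjamini-Hochberg). A gene with several probes was read from the brightest. The number of arrays limits the precision. The scripts were tested on simulated data.

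The members and gene lists were chosen with earlier results of these data known. Members named in the text are the 6 brightest, the 3 dimmest, the 6 highest and 6 lowest by limma's statistic for the group; the genes with the largest and smallest slide differences, the pairs, the 8 of the block fit and Olr545 were chosen after their values were seen. Of the 2 olfactory gene lists the 3 brightest, the 2 highest and the 2 lowest are named. Rtp2, Adcy3, Cngb1, Stoml3, Omp, Cnga2, Cnga4, Olr1061 and the tissue markers named were chosen after their values were seen. The rats are separate animals, and 1 array was made for each. Same-numbered arrays of the 2 groups had correlations of deviations of 0.355, 0.514, −0.072 and −0.293. Replicates 1 and 2 share a slide across the groups, while replicates 3 and 4 lie on opposite slides. The correlations therefore cannot show whether the numbers pair animals, and the main fit treated the groups as unpaired. Alternatives were other normalisations, background correction, filters, variance models, the slide or the replicate number as a block, each slide alone, the deposited table and leaving out each array.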

Additional observations from a re-analysis of the deposited data

Results flagged for a closer look

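Among the 40 groups of 4 arrays tested for an outlying array, 1 had one. The level of Olr1416 in occlusion replicate 3 was 0.19, against −0.37, −0.42 and −0.42 in occlusion replicates 1, 2 and 4, and lay far from these 3, which were close together. The control replicates read 0.16, −0.55, −0.57 and −0.05. Chance marks about 1 in 20 such groups.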

How the results depend on the processing

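Of all probes, 1 passed adjustment after normexp background correction, and none did under the other settings. The count of members at an unadjusted p under 0.05, 2 as reported, was 4 with quantile normalisation, 8 with the slide as a block, 6 in slide 1 alone, 5 in slide 2 alone, 4 of them lower in occlusion, and 0 to 5 with an array left out, and it was 0 without control replicate 3. None passed adjustment under any of these. The count of genes detected, 89, was 283 with the looser positive-and-significant flag, 251 on at least 4 arrays 464 on at least 1 and 64 above the 99th percentile of the negative control spots on all 8. The number of members called between slides, 51, was 24 in the control arrays alone and 46 to 51 with an array left out. Without occlusion replicate 3, 1 of the 48 calls was lower on slide 1. The median slide difference, 1.08, was 0.95 with quantile normalisation, 0.69 with normexp, 1.22 in the occlusion arrays alone, 0.94 in the control arrays alone and 1.0 to 1.18 with an array left out. The median occlusion difference ran from −0.11 to 0.31 with an array left out. The cause of these shifts was not tested.

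The group differences of 8 of the 18 named members changed sign under some setting, and none passed adjustment under any. With array weights they were −0.25 (Olr1416), −0.077 (Olr357), −0.22 (Olr1423), 0.014 (Olr876) and −0.081 (Olr651). Within slide 1 they were −0.14 (Olr1416), 0.14 (Olr876), 0.14 (Olr837), 0.31 (Olr725) and 0.042 (Olr1631), and within slide 2 −0.22 (Olr1423) and −0.42 (Olr651). Olr1416 was −0.020 with normexp, and Olr1416 and Olr1423 were −0.0027 and −0.0031 in the deposited table. With an array left out the ranges were −0.15 to 0.14 (Olr1416), −0.051 to 0.45 (Olr357), −0.20 to 0.20 (Olr1423), −0.23 to 0.036 (Olr876) and −0.17 to 0.33 (Olr651).

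The replicate number is not known to pair animals here. With it as a block the median difference was 0.11, with 2 members at an unadjusted p under 0.05, and 0 probes passed adjustment. Each slide held 2 arrays per group, and members near the floor, 35 of which came under 2 times it, were limited by signal.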
